A study of Mus musculus with 6 samples.

Results

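MHC class II presentation genes were described in splenic CD4+ T cells sorted by surface Lrig1, a transmembrane protein of the leucine-rich repeat and immunoglobulin-like domain family. The 10 genes were taken by name, for their place in the class II pathway: the classical chains *H2-Aa*, *H2-Ab1* and *H2-Eb1*, the invariant chain *Cd74*, the peptide editors *H2-DMa*, *H2-DMb1* and *H2-DMb2*, the editor's inhibitor *H2-Oa* and *H2-Ob*, and the transactivator *Ciita*. All 10 were among the 45777 genes listed and among the 16123 genes tested. They were chosen with earlier results of these data known. CD4+Lrig1+ and CD4+Lrig1- T cells came from the spleen of female mice of the inbred strain C57BL/6 at 7 weeks of age, with no treatment and no engineered allele named. Transcripts were measured by stranded mRNA sequencing of bulk RNA. The labels list 3 samples per group. The 2 tables analysed here hold 1 library of each group each, and are called set 1 and set 2. Nothing in the labels says whether the 2 libraries of a group came from separate mice or from pools. At most, p-values cover the spread between these libraries, and they cannot be read as a spread between mice.

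MHC class II molecules display peptides from endocytosed proteins to CD4+ T cells. The α and β chains assemble with the invariant chain (Cd74), which guides them to endosomes, where H2-DM exchanges its remnant for antigenic peptides and H2-O restrains H2-DM. B cells, dendritic cells and macrophages are the main class II-expressing cells of the mouse spleen, whereas resting mouse T cells are known for little or none. Transcription depends on Ciita, which does not bind DNA itself but is recruited by factors bound to an X box (the RFX complex) and a Y box (NF-Y) close to the start of each gene.

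These boxes are shown because they are the feature through which Ciita acts on the other members. RefSeq promoter entries (250 bases before to 50 bases after a start, GRCm38.p6) existed for 7 of the 10 members, and *H2-Ab1*, *Cd74* and *Ciita* had none. Both strands were searched for a CCAAT core (ATTGG, in 37.4% of the 32851 entries), a longer Y box that ends in that core (CTGATTGG, in 1346 entries) and an X box core (AGNAAC, in 48.1%). An X box core followed downstream by a CCAAT core after 10 to 35 bases, each on either strand, was in 2.65% of all entries and in 4 members: *H2-Eb1*, *H2-DMb1*, *H2-Oa* and *H2-Ob*, with gaps of 27, 28, 28 and 25 bases. *H2-Aa* and *H2-DMb2* held a CCAAT core without such an X box core, and neither of the 2 entries of *H2-DMa* held the pair. A search for exact letters misses a box that departs from them, so these genes are not shown to lack an X box. The longer Y box was in *H2-Aa*, *H2-Eb1* and *H2-Oa*. The lines give the 100 bases from -120 to -21 relative to the start, 5′ to 3′ on the strand of the gene, with the X box core, Y box or CCAAT core in capitals (CCAAT where it is on the other strand). They lie at chr17:34287844-34287943 on the minus strand for *H2-Aa*, and on the plus strand at chr17:34305747-34305846 for *H2-Eb1*, chr17:34153071-34153170 for *H2-DMb1*, chr17:34145129-34145228 for *H2-DMb2*, chr17:34092259-34092358 for *H2-Oa* and chr17:34238785-34238884 for *H2-Ob*.
H2-Aa: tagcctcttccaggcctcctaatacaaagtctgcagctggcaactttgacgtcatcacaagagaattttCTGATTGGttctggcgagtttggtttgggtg
H2-Eb1: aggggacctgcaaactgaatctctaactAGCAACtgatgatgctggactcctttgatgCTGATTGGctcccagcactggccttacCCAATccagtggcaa
H2-DMb1: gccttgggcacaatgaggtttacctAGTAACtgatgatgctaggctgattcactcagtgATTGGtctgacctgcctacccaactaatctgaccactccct
H2-DMb2: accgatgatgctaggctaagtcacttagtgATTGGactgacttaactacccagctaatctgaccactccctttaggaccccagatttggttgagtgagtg
H2-Oa: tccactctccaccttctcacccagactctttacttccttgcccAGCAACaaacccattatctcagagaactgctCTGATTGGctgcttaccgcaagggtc
H2-Ob: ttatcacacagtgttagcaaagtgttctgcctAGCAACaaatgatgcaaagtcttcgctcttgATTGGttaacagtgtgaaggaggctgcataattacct

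The libraries held 44865070 to 59977951 estimated counts. The sets stood further apart than the groups did. Log2 CPM (counts scaled to library size by the TMM method) correlated between groups at 0.960 in set 1 and 0.959 in set 2, and between sets at 0.908 in either group; these correlations are across genes, and genes are not independent replicates. Each comparison is therefore also given as a log2 ratio within a set, CD4+Lrig1+ over CD4+Lrig1-, where 1 library stands for each group and no test exists. *Lrig1* went with the labels (221 and 129 CPM in the CD4+Lrig1+ libraries of sets 1 and 2, against 75.4 and 36.7), as did *Foxp3*, the lineage factor of regulatory T cells (589 and 615 against 48.9 and 30.7). Of the 12 T cell markers none was at 0, and they summed to 5976 and 7665 CPM in the CD4+Lrig1+ libraries against 5850 and 7824 in the CD4+Lrig1- libraries.

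In these libraries 9 of the 10 class II genes had lower levels in the CD4+Lrig1+ library of either set, and *H2-Oa* had a higher level in both. Of all genes tested 41.3% were lower and 36.5% higher in both sets. The 10 genes together summed to 303 (CD4+Lrig1+) against 695 CPM (CD4+Lrig1-) in set 1 and to 1368 against 2757 CPM in set 2. The log2 ratio of the sum was -1.20 in set 1 and -1.01 in set 2, while set 2 was 4.52-fold above set 1 in CD4+Lrig1+ and 3.97-fold above it in CD4+Lrig1- T cells. The groups overlap for this sum (835 ± 753 against 1726 ± 1458 CPM, SD, n = 2; exact permutation test, two-sided, p = 0.667), and with 2 libraries against 2 this test cannot give a p below 0.333. In bulk RNA, fewer class II-expressing cells in a library and less class II RNA per cell cannot be told apart.

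No member passed an adjusted p of 0.05 in edgeR's quasi-likelihood test, which called 0 of the 16123 genes higher (0%) and 0 lower (0%). At an unadjusted p under 0.05 it had 674 genes higher (4.18%) and 227 lower (1.41%), and 1 member, *Ciita*, was among the lower ones. The median log2 fold change of the members was -1.10, against -0.04 over all genes tested. Without the CD4+Lrig1- library of set 2, in a fit with no term for the set, it was 0.24. A second model also held a term for the table of origin, named the table block, and had 1 residual degree of freedom. It was chosen with earlier results of these data known. Its estimate of spread for a gene is partly shared with other genes. Its p-values and standard errors thus do not rest on the difference between the sets for that gene alone. For *H2-Aa* the standard error was 0.14, where the log2 ratios of the sets were -1.90 and -1.26. This model called 2358 genes higher (14.6%) and 2056 lower (12.8%). Of the members it called 7 lower (*H2-Aa*, *H2-Ab1*, *H2-Eb1*, *Cd74*, *H2-DMb1*, *H2-DMb2* and *Ciita*) and 1 higher (*H2-Oa*), and did not call *H2-DMa* and *H2-Ob*. With at least a 2-fold change required as well, it called 6 members lower, without *H2-DMb2*, and 0 higher, against 3.05% lower and 7.22% higher of all genes. The groups did not overlap, with both CD4+Lrig1+ libraries below both CD4+Lrig1- libraries, for *Ciita* and *H2-DMb1*, as for 11.8% of all genes tested. Within set 1, 6 members were at least 2-fold lower in CD4+Lrig1+ T cells (5.09% of all genes), and within set 2 also 6 (8.29%).

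**Figure D1:**
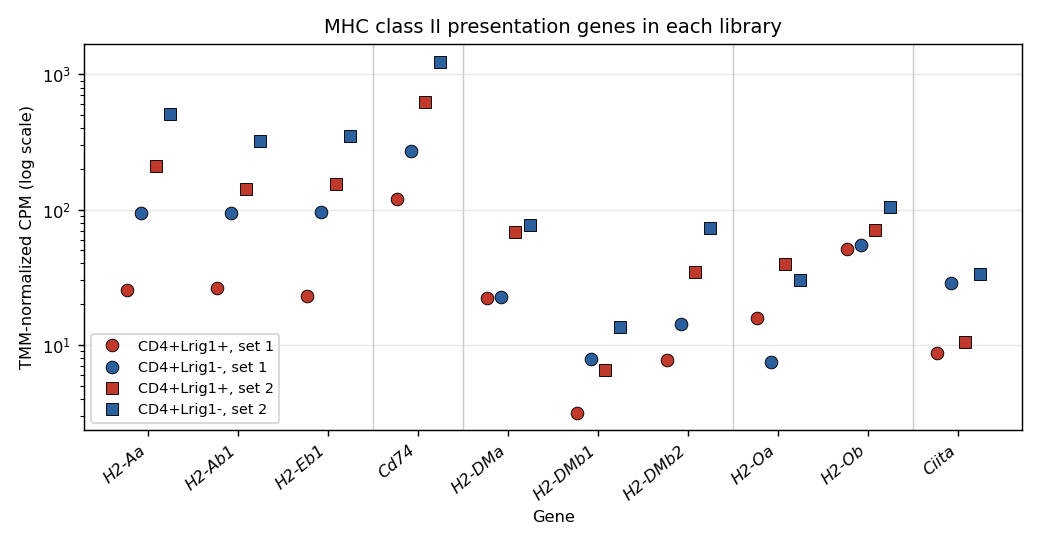
TMM-normalized CPM (log axis) of the 10 genes in each of the 4 libraries, with colour for the group and symbol for the set; vertical lines part the classical chains, Cd74, the H2-DM genes, the H2-O genes and Ciita. Set 2 lies above set 1 within each group for all 10 genes, least for Ciita (1.21-fold and 1.17-fold), and the groups do not overlap for Ciita and H2-DMb1.

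The classical chains were lower in the CD4+Lrig1+ library of either set. *H2-Aa*, the α chain of the I-A molecule (gene ID 14960, chr17:34282744-34287823 of GRCm38), had 25.3 (CD4+Lrig1+) against 94.6 CPM (CD4+Lrig1-) in set 1 and 210 against 506 CPM in set 2. Its log2 ratio was -1.90 in set 1 and -1.26 in set 2, and its log2 fold change over all libraries was -1.35 (standard error 1.34). The CD4+Lrig1+ library of set 2 was above the CD4+Lrig1- library of set 1, so the groups overlap, as they do for the other classical chains. *H2-Ab1*, the β chain of I-A (gene ID 14961, chr17:34263227-34269418), had 26.3 against 94.6 CPM in set 1 and 143 against 323 CPM in set 2, with log2 ratios of -1.84 and -1.18. *H2-Eb1*, a β chain of the I-E molecule (gene ID 14969, chr17:34305867-34316674), had 23.1 against 96.7 CPM in set 1 and 154 against 350 CPM in set 2, with log2 ratios of -2.06 and -1.18. For each of these 3 genes the ratio was farther from 0 in set 1 than in set 2, and the 95% counting intervals of the sets did not overlap (-1.99 to -1.81 against -1.30 to -1.23 for *H2-Aa*). These intervals cover counting error only. The quasi-likelihood test of edgeR with the table block gave an adjusted p of 3.15e-04 for *H2-Aa*, 4.20e-04 for *H2-Ab1* and 8.65e-04 for *H2-Eb1*, at log2 fold changes of -1.57, -1.50 and -1.60 (standard errors 0.14, 0.15 and 0.18). Without it the adjusted p was 1.00 for each.

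*Cd74*, the invariant chain (gene ID 16149, chr18:60803849-60812652), was the most abundant member. Set 1 gave 120 (CD4+Lrig1+) against 274 CPM (CD4+Lrig1-), and set 2 gave 630 against 1245 CPM. The log2 ratios were -1.19 and -0.98, closer to each other and to 0 than those of the classical chains in set 1. The adjusted p was 1.00 without and 3.04e-04 with the table block (log2 fold change -1.09, standard error 0.10). *Cd74* is listed with a short and a long transcript, the long one having an extra exon that encodes a protease-inhibiting domain. The long transcript took 31.7% (CD4+Lrig1+) and 37.1% (CD4+Lrig1-) of the estimated counts of *Cd74* in set 1, and 21.1% and 22.1% in set 2. Its share thus separated the sets and not the groups.

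**Figure D2:**
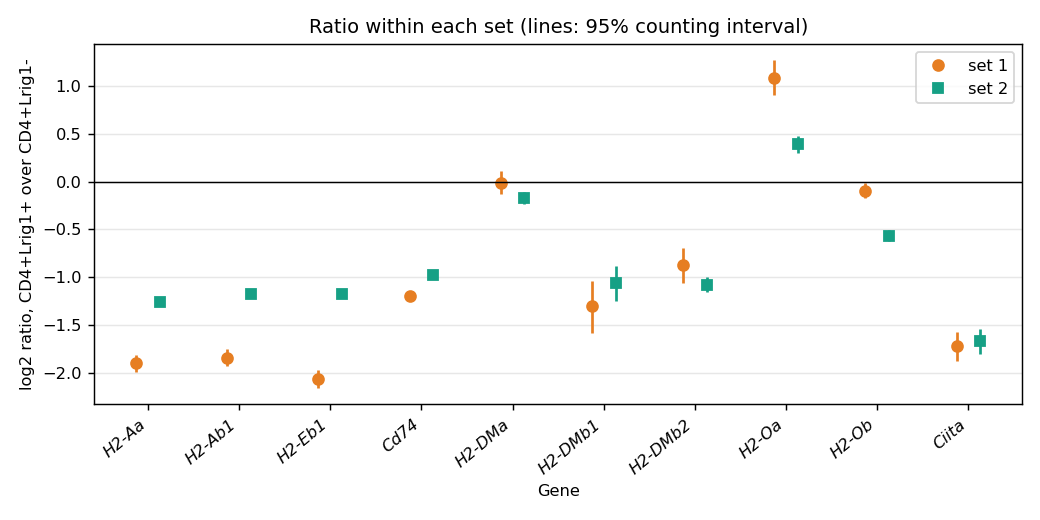
Log2 ratio (CD4+Lrig1+ over CD4+Lrig1-) for each gene within set 1 (circles) and set 2 (squares), with lines for the 95% counting interval; there is 1 library per group in each set. Points below 0 are lower in CD4+Lrig1+ T cells: the classical chains run from -2.06 to -1.18, Ciita lies at -1.72 and -1.67, and only H2-Oa lies above 0 in the sets.

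The H2-DM genes, which encode the heterodimer that exchanges peptides on class II molecules, differed from one another in their values. *H2-DMa*, its α chain (gene ID 14998, chr17:34119693-34139101), had 22.2 against 22.4 CPM in set 1 and 68.5 against 77.4 CPM in set 2. Its log2 ratio was -0.01 in set 1, with a counting interval from -0.14 to 0.11, and -0.18 in set 2, and it was not called with the table block (adjusted p = 0.445, log2 fold change -0.10, standard error 0.09). *H2-DMb1*, a β chain (gene ID 14999, chr17:34153191-34160229), had 3.15 against 7.81 CPM in set 1 and 6.48 against 13.5 CPM in set 2. Both of its CD4+Lrig1+ libraries were below both CD4+Lrig1- libraries (4.82 ± 2.35 against 10.7 ± 4.05 CPM, SD, n = 2). *H2-DMb2*, the other β chain (gene ID 15000, chr17:34143229-34151553), had 7.79 against 14.3 CPM in set 1 and 34.4 against 72.7 CPM in set 2, so its groups overlap. With the table block the adjusted p was 0.00129 for *H2-DMb1* (log2 fold change -1.18) and 4.28e-04 for *H2-DMb2* (-0.99).

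The counts of the β chains may not be independent of each other, which was not tested on reads. The longest GENCODE transcripts of *H2-DMb1* and *H2-DMb2* had 94.6% identical bases over 1219 aligned positions, and 27.2% of the 50-base windows of *H2-DMb1* also occurred in *H2-DMb2*, so the authors' counting may have divided reads between the pair. No such window was shared between *H2-Eb1* and *H2-Eb2*. For *H2-DMa* the counts were given to different transcripts in different libraries. A transcript of 7531 bases took 89.2%, 88.6% and 100% of them in the set 1 libraries and the CD4+Lrig1+ library of set 2, whereas one of 1955 bases took 97.0% in the CD4+Lrig1- library of set 2. Its FPKM (fragments per kilobase, relative to all mapped fragments) in set 2 was therefore 8.21 against 33.3, although its CPM differed by 1.13-fold.

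The H2-O genes differed in sign. *H2-Oa*, the α chain of the H2-DM inhibitor (gene ID 15001, chr17:34092379-34095234), had 15.8 (CD4+Lrig1+) against 7.43 CPM (CD4+Lrig1-) in set 1 and 39.7 against 30.3 CPM in set 2. It was 2.12-fold higher in CD4+Lrig1+ T cells in set 1 and 1.31-fold higher in set 2, and the groups overlap because both libraries of set 2 were above both of set 1. Its log2 fold change was 0.55 (standard error 0.87, adjusted p = 1.00), and 0.71 with the table block (standard error 0.16, adjusted p = 0.0163). *H2-Ob*, the β chain (gene ID 15002, chr17:34238905-34245908), had 50.7 against 54.3 CPM in set 1 and 70.6 against 105 CPM in set 2, with log2 ratios of -0.10 and -0.57, and was not called with the table block (adjusted p = 0.0656). Within a library, the FPKM of *H2-Oa* over that of *H2-Ab1* was 0.681 and 0.317 in the CD4+Lrig1+ libraries of sets 1 and 2, against 0.0892 and 0.107 in the CD4+Lrig1- libraries. *H2-Oa* over *H2-DMb2* was 2.76 and 1.57 against 0.701 and 0.563. Both ratios were higher in both CD4+Lrig1+ libraries (exact permutation test, two-sided, p = 0.333, the smallest it can give here). Of the 9 such ratios computed between members, 5 reached that p, and the Benjamini-Hochberg adjusted p over the 9 was 0.600 for these.

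*Ciita*, the class II transactivator (gene ID 12265, chr16:10480014-10531064), was the member whose level differed least between the sets. Set 1 gave 8.75 (CD4+Lrig1+) against 28.9 CPM (CD4+Lrig1-), and set 2 gave 10.6 against 33.7 CPM. The means were 9.66 ± 1.29 and 31.3 ± 3.39 CPM (SD, n = 2), and both CD4+Lrig1+ libraries lay below both CD4+Lrig1- libraries. From set 1 to set 2 *Ciita* differed by 1.21-fold in CD4+Lrig1+ and 1.17-fold in CD4+Lrig1- T cells, against 8.31-fold and 5.34-fold for *H2-Aa* in the same libraries. Its log2 ratio was -1.72 in set 1 and -1.67 in set 2, and its log2 fold change was -1.70 (standard error 0.30). The unadjusted p was 0.00499 and the adjusted p was 0.580 by edgeR's quasi-likelihood test, 0.0767 by edgeR's exact test, 0.0253 by the Wald test of DESeq2 and 4.24e-05 with the table block. The Wald test had 1.61% of all genes higher and 0.31% lower, against 1.22% and 0.105% for the exact test.

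*Ciita* transcripts start at separate promoters. The first is known from dendritic cells, the next from B cells, and the last from cells exposed to interferon-γ. The 10 listed transcripts begin at 3 places on chromosome 16: 6 between 10480014 and 10480072, 2 between 10488124 and 10488178, and 2 between 10489695 and 10489781. Transcripts from the second place took most of the estimated counts of *Ciita* in every library, 85.3% (CD4+Lrig1+) and 77.1% (CD4+Lrig1-) in set 1 and 55.0% and 61.8% in set 2. The first took 14.7% and 20.5% in set 1 and 45.0% and 38.1% in set 2. Of its 273 (CD4+Lrig1+) and 694 counts (CD4+Lrig1-) in set 2, a transcript of 8873 bases took 255 and 618. In set 1 that transcript had 0 and 7 counts. The last place had 33 and 2 counts in the CD4+Lrig1- libraries of sets 1 and 2, and 0 in the CD4+Lrig1+ libraries, where 0 counts allow up to 0.0577 and 0.0522 CPM (3 counts per library). In CPM the CD4+Lrig1- library was 4.60-fold (set 1) and 2.70-fold (set 2) above the CD4+Lrig1+ library for the first place, and 2.99-fold and 3.58-fold above it for the second. The transcripts share nearly all their exons, so these shares rest on the authors' assignment of reads to isoforms.

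**Figure D3:**
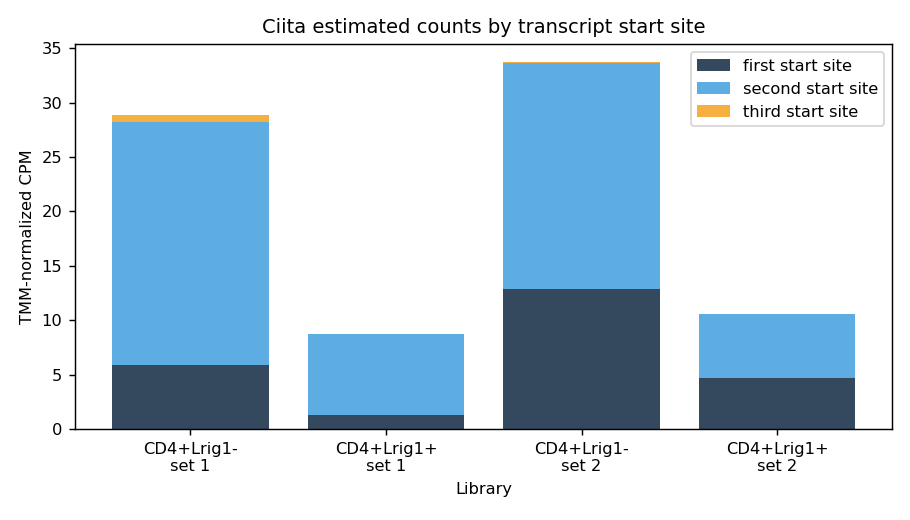
TMM-normalized CPM of Ciita in each library, stacked by the place where the listed transcripts start (in the order of transcription). The CD4+Lrig1- bars reach 28.9 and 33.7 CPM and the CD4+Lrig1+ bars 8.75 and 10.6 CPM, with the second place the largest part of each.

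The order of levels was compared in FPKM, which is per length. *Cd74* was the highest in each of the 4 libraries (90.0 and 452 FPKM in CD4+Lrig1+ T cells of sets 1 and 2, 204 and 833 in CD4+Lrig1- T cells), followed by *H2-Aa* (21.6 and 168 against 80.6 and 378) and *H2-Ab1* (21.2 and 108 against 76.2 and 229). *Ciita* was the lowest in all 4 (1.24 and 1.48 against 3.72 and 3.90). *H2-Eb1* came next except in the CD4+Lrig1+ library of set 1, where *H2-Ob* (18.3 FPKM) and *H2-Oa* (14.5 FPKM) were above it (13.3 FPKM). Over all 4 libraries the means were 395 ± 329 FPKM for *Cd74*, 162 ± 156 for *H2-Aa*, 109 ± 87.7 for *H2-Ab1*, 82.4 ± 69.3 for *H2-Eb1*, 23.7 ± 6.69 for *H2-Ob*, 20.0 ± 17.0 for *H2-DMb2*, 20.0 ± 11.9 for *H2-Oa*, 12.3 ± 14.2 for *H2-DMa*, 5.41 ± 2.73 for *H2-DMb1* and 2.58 ± 1.42 for *Ciita* (SD, n = 4). The ranges of 1 SD on either side of the mean overlapped for every pair of neighbours. These SDs include the differences between sets and between groups.

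Of 7 promoter factors, which recruit Ciita or act beside it, 0 were called without the table block. With it 1 was called higher and 0 lower, against 14.6% and 12.8% of all genes, and the median log2 fold change was -0.13. The one called was *Rfx5*, a subunit of the RFX complex, with 60.4 against 38.9 CPM in set 1 and 35.2 against 27.1 CPM in set 2 (log2 fold change 0.53, adjusted p = 0.00797 with the table block). The other RFX subunits had log2 fold changes of 0.08 (*Rfxank*) and -0.20 (*Rfxap*), the NF-Y subunits had -0.13 (*Nfya*), 0.01 (*Nfyb*) and -0.13 (*Nfyc*), and *Creb1* had -0.17. Of 9 genes of the interferon-γ route to *Ciita*, 2 were called lower with the table block and 0 higher, with a median log2 fold change of -0.02. They were *Ifngr2*, a chain of the interferon-γ receptor (38.3 against 65.3 CPM in set 1 and 33.4 against 63.9 in set 2), and the kinase gene *Jak1* (897 against 1095 and 847 against 1142 CPM). For both the groups did not overlap, with lower levels in CD4+Lrig1+ T cells, as for 11.8% of all genes tested.

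Endosomal processing genes went both ways. Of 9 such genes the table block called 3 higher and 4 lower, against 14.6% and 12.8% of all genes. None of the 9 were called without it, and their median log2 fold change was -0.25. The cathepsin genes *Ctsb* and *Ctsz* had the largest log2 fold changes (0.70 and 0.54), and *Ctsh* and *Ctsl* the smallest (-1.29 and -0.82). Of 3 genes that bear on the turnover of class II protein, *Cd83*, whose product opposes its ubiquitination, had 101 and 152 CPM in the CD4+Lrig1+ libraries against 9.67 and 27.3 in the CD4+Lrig1- libraries. *March1*, which encodes a ubiquitin ligase of class II, had 2.29 and 8.69 against 6.20 and 21.1 CPM. With the table block both were called, *Cd83* higher (log2 fold change 2.90) and *March1* lower (-1.35), and *March8* was not. *H2-Eb2*, a further β chain gene of the region, had 1.25 and 6.81 against 9.34 and 18.5 CPM and was called lower with the table block, whereas *H2-Ea-ps*, the α chain pseudogene of I-E, had 0 counts in all libraries, which allows up to 0.0522 to 0.0627 CPM.

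MHC class I presentation genes served as a neighbouring pathway on the same scale. Of 14 such genes 11 had higher levels in the CD4+Lrig1+ library of either set, and 1 had lower levels in either. Of all genes tested this held for 36.5% and 41.3%. The median log2 fold change of the 14 genes was 0.17. The table block called 1 of them, the immunoproteasome gene *Psmb8*, higher (log2 fold change 0.31), and none lower, against 14.6% and 12.8% of all genes. The 14 genes summed to 10840 against 9500 CPM in set 1 and 16322 against 15071 CPM in set 2.

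Markers of other class II-expressing cells were present in every library, and none of the genes listed was at 0 in any. B cells carry no CD4. How far the sort removed B cells, dendritic cells or macrophages was not tested. The 14 B cell markers summed to 115 (CD4+Lrig1+) against 101 CPM (CD4+Lrig1-) in set 1 and to 474 against 959 CPM in set 2. The class II sum was 2.63 and 6.90 times the B cell sum in set 1, and 2.89 and 2.88 times it in set 2. In set 2 the members and the B cell markers were thus lower in CD4+Lrig1+ T cells to about the same degree (2.02-fold each), whereas in set 1 the log2 ratio was -1.20 for the members and 0.19 for the B cell sum. The sum of set 1 does not stand for the list there: 10 of the 14 markers were lower and 4 higher in CD4+Lrig1+ T cells, with a median log2 ratio of -0.09. Without *Cd22* and *Cd79b*, the other 12 markers summed to 68.6 against 77.7 CPM in set 1 and to 343 against 759 CPM in set 2. The 2 genes were left out after their values were seen, so the change of direction in set 1 follows from that choice. The table block called 5 of the 14 B cell markers lower and 0 higher, against 12.8% and 14.6% of all genes. *Spib*, an Ets factor, had the largest drop in set 1 (7.48 against 11.9 CPM), and *Cd79b* and *Cd22* were higher there (13.5 against 6.85 and 32.8 against 16.2 CPM).

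The 8 conventional dendritic cell markers were far less abundant and had lower sums in the CD4+Lrig1+ library of either set. They summed to 10.9 against 48.8 CPM in set 1 and to 11.6 against 38.3 CPM in set 2, a difference of 4.49-fold and 3.28-fold. The table block called 5 of the 8 lower, against 12.8% of all genes. *Flt3*, a cytokine receptor of dendritic cell precursors, had 1.63 against 9.54 CPM and 0.905 against 7.18 CPM, and *Itgax*, the integrin chain CD11c, had 4.42 against 29.5 and 6.27 against 17.4 CPM. *Xcr1* was the exception, with 0.923 against 0.251 and 1.41 against 0.833 CPM. The 4 plasmacytoid dendritic cell markers summed to 11.1 against 26.3 CPM in set 1 and 8.72 against 50.9 CPM in set 2, and all 4 were called lower with the table block. The 14 macrophage and monocyte markers moved the other way in sum, 65.4 against 43.0 CPM in set 1 and 344 against 227 CPM in set 2. Of them 7 were called higher and 1 lower, against 14.6% and 12.8% of all genes. The part of these cells in the class II levels was not tested.

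**Figure D4:**
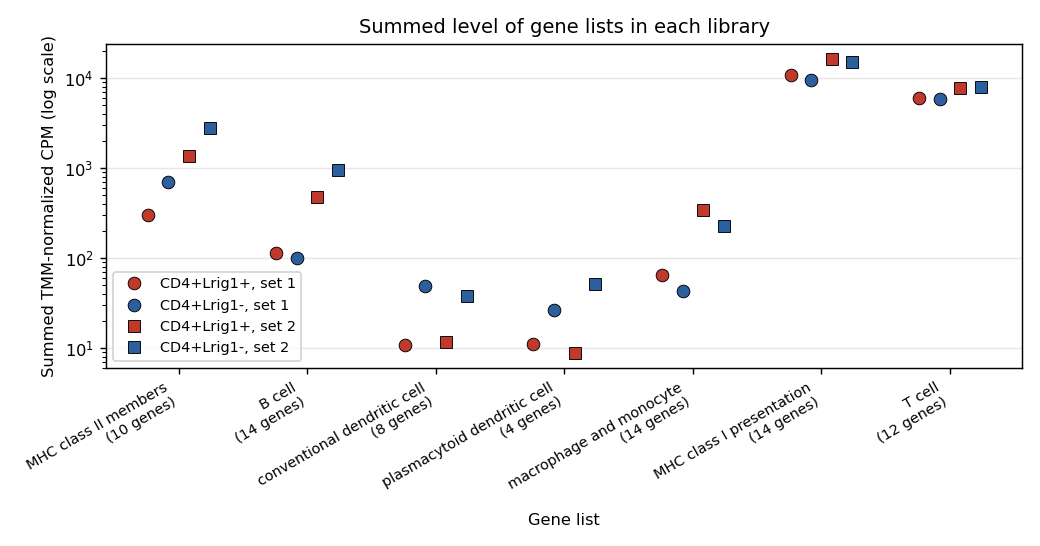
Summed TMM-normalized CPM (log axis) of the class II members, 4 lists of markers of other cells, the class I list and the T cell list in each library, with colour for the group and symbol for the set. The T cell and class I sums are nearly level between groups, the dendritic cell sums are lower in the CD4+Lrig1+ libraries in each set, and the B cell sum is lower in set 2 but not in set 1, where 10 of the 14 B cell markers are lower.

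**Figure D5:**
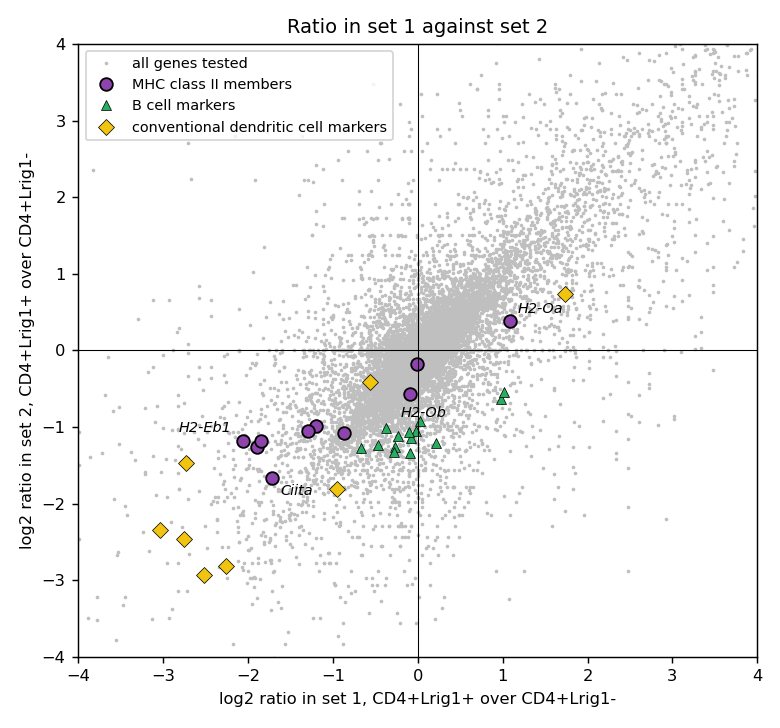
Log2 ratio (CD4+Lrig1+ over CD4+Lrig1-) in set 1 (x axis) and set 2 (y axis) for all genes tested (grey), the class II members (purple circles), B cell markers (green triangles) and conventional dendritic cell markers (yellow diamonds); 207 genes lie outside the axes. Of the members 9 lie below 0 on both axes, and the B cell markers lie below 0 on the y axis and around 0 on the x axis.

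The genes with the pattern most like the members were sought by the distance between centred log2 CPM profiles over the 4 libraries. Of 10085 genes with a mean of at least 5 CPM, the 10 nearest to the median profile of the members were *Mpeg1*, *Lmo2*, *Lyn*, *Fcgrt*, *Plcg2*, *Cd8b1*, *Ctsl*, *Gm13408*, *Fcer1g* and *LOC115489965*, at distances of 0.148 to 0.404 log2 units, against a median of 2.03 over all genes compared. *Mpeg1*, which encodes a pore-forming protein of phagocytes, had 12.7 and 45.6 CPM in the CD4+Lrig1+ libraries of sets 1 and 2, against 24.2 and 84.4 in the CD4+Lrig1- libraries. *Lyn*, a Src family kinase of B cells and myeloid cells, had 7.83 and 25.2 against 12.6 and 45.5 CPM. Of the members *H2-DMb2* (0.525) and *Cd74* (0.565) were nearest to that median profile, and *Ciita* (1.76) and *H2-Oa* (1.66) were farthest. With 4 libraries such a likeness is a description of these libraries.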

How the data were processed

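The authors sequenced stranded mRNA libraries of splenic T cells, sorted as CD4+Lrig1+ or CD4+Lrig1-, as paired-end reads. By the methods and the submitters' processing notes, reads were trimmed with Trimmomatic 0.38, mapped with HISAT2 2.1.0 to GRCm38 and assembled with StringTie 2.1.3b. The deposited estimated counts per RefSeq transcript are not normalized, and the deposited FPKM values are scaled by the authors to transcript length and mapped fragments. TPM columns were not used. Of the 6 samples, 4 libraries were analysed: 6 per-sample columns of another table are named without the Lrig1 group and were left out. The columns carry no replicate numbers.

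Transcripts were summed per gene symbol (129299 transcripts, 45777 genes). Low genes were removed by filterByExpr (edgeR 4.0.16, R 4.3.3), libraries were scaled by TMM, and groups were compared with the two-sided quasi-likelihood test and Benjamini-Hochberg adjustment over all genes tested. Standard errors are the fold change over the root of the F statistic. A prior count of 2 entered the ratios within sets, and 95% counting intervals are exact binomial intervals scaled to library size. DESeq2 1.42.0, limma 3.58.1 and the other alternatives are given in the closing section. Fits were also run on simulated counts. Their spread was taken from the model with the table block, so these runs cannot check that spread. Sequences were handled with Python 3.11.15 and Biopython 1.88.

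The members, the gene lists and the table block were chosen with earlier results of these data known. All members are named, with the promoter factors and the 10 nearest profiles. Of the other pathway lists, the genes that the table block called are named (for more than 5, the extremes of the fold change). Of the cell type markers, some were named after their values were seen, and not every called marker is named.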

Additional observations from a re-analysis of the deposited data

How the results depend on the processing

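Over the 10 alternatives that kept all 4 libraries, all 10 members kept the sign of their log2 fold change, the members' median ran from -1.13 to -0.99 and the log2 ratio of their summed level, where it was computed, from -1.05 to -1.01. The DESeq2 Wald test called 260 genes higher and 50 lower, of them 1 member (*Ciita*), and edgeR's exact test called 196 and 17, with no member. The table block, which serves as the replicate block here, called 2358 genes higher and 2056 lower, with 1 and 7 members, and with at least a 2-fold change 1164 and 491, with 0 and 6 members. DESeq2's size factors, both filters on low counts, limma on log2(FPKM + 1) and log2(FPKM + 0.1) and removal of 179 immunoglobulin genes called 0 genes.

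Leaving out 1 library in turn gives fits with no term for the set, in which a group with 1 library is assumed to vary like the other. They called 1 to 88 genes higher and 0 to 2 lower, with no member. The members' median ran from -2.17 to 0.24 and the log2 ratio of the sum from -2.52 to 0.27, the highest of each without the CD4+Lrig1- library of set 2. Of the members the range crossed 0 for *Cd74* (-2.67 to 0.46), *H2-Aa* (-3.57 to 0.32), *H2-DMa* (-1.18 to 1.02), *H2-DMb2* (-2.49 to 0.57), *H2-Ob* (-0.74 to 0.16) and *H2-Oa* (-0.27 to 1.91), and for *Ciita* it ran from -1.84 to -1.53. *H2-Oa* turned negative without either the CD4+Lrig1- library of set 1 (-0.08) or the CD4+Lrig1+ library of set 2 (-0.27), and *H2-DMa* was also positive when set 1 lost its CD4+Lrig1+ library (0.51). The difference between sets enters these fits, and its cause was not tested. *H2-DMb1* had 164 to 731 counts per library.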
